A study of Mus musculus with 12 samples.

Results

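The 8 genes described here belong to the synthesis of cholesterol and to its control by the transcription factor SREBP2. They are Srebf2, which encodes SREBP2, the enzyme genes Idi1, Fdft1, Sqle, Lss, Cyp51 and Sc5d, and Stard4, which encodes a sterol carrier protein. They were matched by gene symbol, with earlier results of these data known when they were picked, and make up 8 of the 19938 genes that could be followed on the arrays. All 8 had a probe set with 1 gene symbol, and no filter on low values was applied.

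Livers were taken from 12 male mice of C57Bl6/J background in 3 groups of 4, and their RNA was measured on Affymetrix arrays, 1 per liver. The first group, called S534A LPS, was homozygous for a knock-in allele that replaces a serine of p65 with alanine (S534A), p65 being the NF-kB subunit encoded by Rela, and received lipopolysaccharide (LPS) at 1 µg/kg. The second group, WT LPS, was wild type and received the same dose, and the third, WT untreated, was wild type and received none. Targeting was done in PTL1 embryonic stem cells, FLPe was used to remove the neo selection cassette, and 5 backcrosses to C57Bl6/J followed. LPS, from the envelope of Gram-negative bacteria, activates NF-kB through Toll-like receptor 4. The sources used here give neither the age of the mice, nor the time between LPS and collection, the time of day or the feeding state at collection. S534A livers without LPS were not analysed here. The untreated arrays carry titles of another scheme than the LPS arrays, so any batch between them cannot be told apart from LPS.

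SREBP2 is made as a precursor anchored in the membrane of the endoplasmic reticulum. When sterols are scarce, the escort protein Scap carries it to the Golgi, where proteases release the part that enters the nucleus and raises transcription of the genes for cholesterol synthesis and uptake. When sterols are plentiful, Insig proteins hold Scap back. In the liver the pathway supplies cholesterol for membranes, lipoproteins and bile acids. Because control lies largely in the processing of the precursor, the level of Srebf2 RNA does not measure active SREBP2.

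In WT livers given LPS, Sc5d, Stard4, Lss and Fdft1 fell relative to untreated WT livers, Stard4 to 47.1% and Sc5d to 62.9% of the untreated level. Sqle, which lies between Fdft1 and Lss in the pathway, was higher by 0.29 on the log2 scale but did not pass the threshold. Idi1 and Cyp51 were lower without passing it, and Srebf2 differed by 0.11. No difference between S534A and WT livers given LPS passed the threshold for any of the 8 genes. Differences throughout are on the log2 scale with the standard error of limma's fit across all genes, and a gene passed when its p, adjusted by the Benjamini-Hochberg method across all 19938 genes, was under 0.05. In these terms 4 of the 8 genes fell and 0 rose in WT LPS against WT untreated, and 6 had an unadjusted p under 0.05, Sqle being the 1 of those that was higher. Among all genes, 15.6% fell and 9.34% rose in the same comparison, and 7074 of the 19938 had an unadjusted p under 0.05. The median difference was -0.38 over the 8 genes and 0.02 over all genes.

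**Figure D1:**
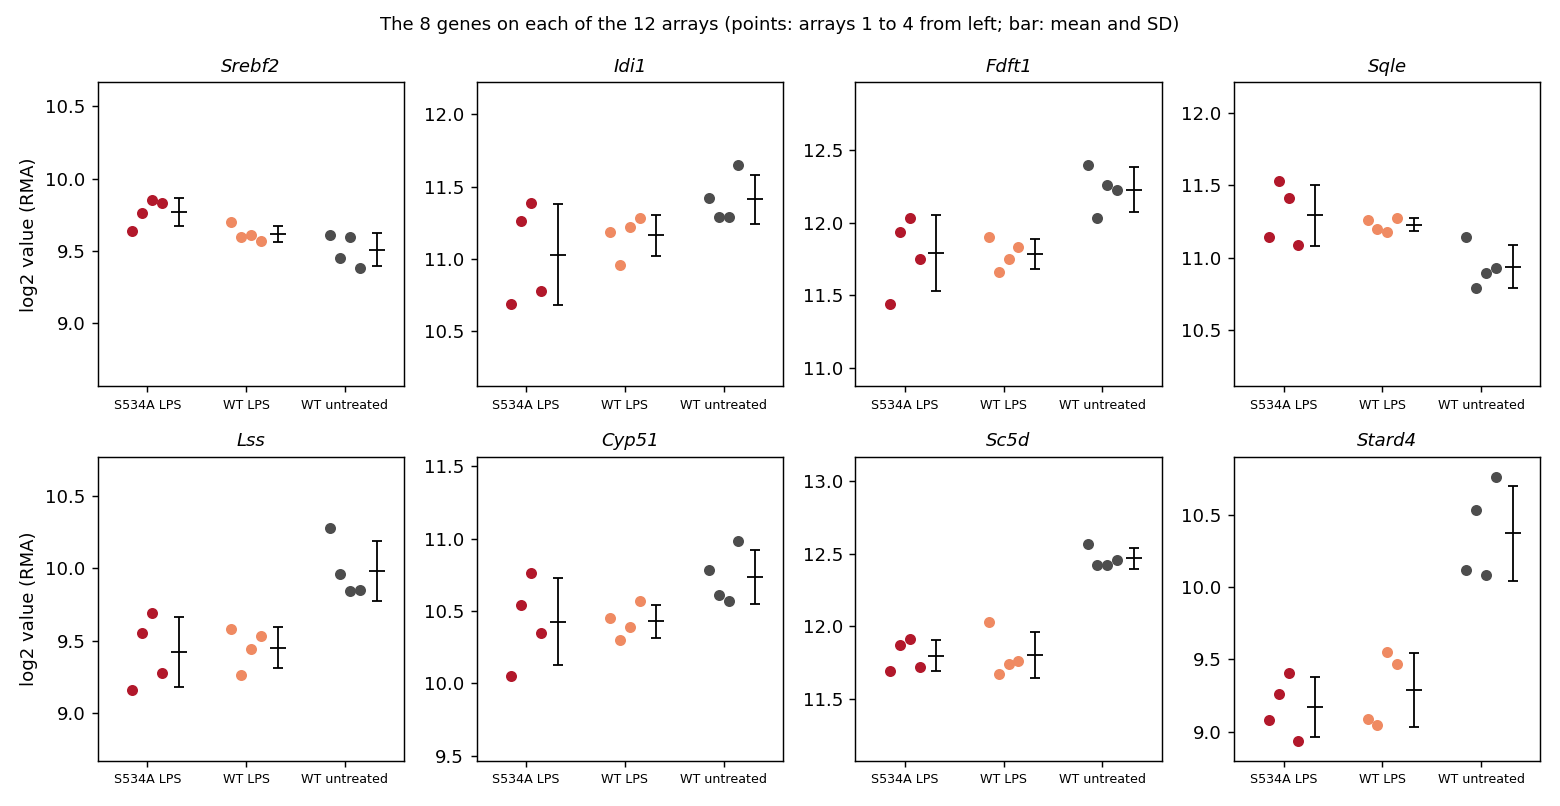
Log2 RMA value (vertical axis) of each of the 8 genes on each of the 12 arrays, by group, with points for replicates 1 to 4 from left to right and a bar for the group mean and its SD. Stard4 and Sc5d lie lower on all 8 LPS arrays than on all 4 untreated ones, while Sqle lies higher on all 4 WT LPS arrays than on the untreated ones and Srebf2 overlaps between WT LPS and untreated.

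Several features of the arrays bear on these values. The mean of 11 hepatocyte markers was 13.37 to 13.43 on S534A LPS, 13.41 to 13.47 on WT LPS and 13.37 to 13.51 on WT untreated arrays, and Alb averaged 14.04, 14.02 and 14.00 in that order. Of these 11, 2 fell and 2 rose in WT LPS against WT untreated, where 15.6% of all genes fell and 9.34% rose. Ttr (-0.20, limma adjusted p = 0.0121) and Serpina1d (-0.41, 0.00131) fell, and Hnf4a (0.38, 0.00166) and Pck1 (0.50, 0.0166) rose. The mean of 12 exocrine pancreas markers was 9.11 on S534A LPS replicate 3, 8.21 on WT LPS replicate 2 and 6.56 on WT LPS replicate 3, 5.91 to 6.12 on the other LPS arrays and 5.66 to 6.03 on untreated ones. Ctrb1 averaged 7.83 ± 2.45 on S534A LPS and 8.28 ± 1.74 on WT LPS arrays (SD, n = 4 each), its spread coming from the same few arrays. The mean of 12 neutrophil markers was 7.50 to 7.78 on S534A LPS, 7.15 to 7.40 on WT LPS and 5.74 to 6.00 on WT untreated arrays, with 10 of the 12 higher in WT LPS than in WT untreated. Lcn2 rose the most of the 12 (4.11, limma adjusted p = 7.8e-07), and its cell source was not tested. The mean of 9 Kupffer cell markers was 8.93 to 9.13, 8.63 to 9.26 and 9.02 to 9.44 in the same order, over members that went both ways: in WT LPS against WT untreated 3 fell, such as Clec4f (-0.76, limma adjusted p = 0.000203), and Marco rose (1.40, limma adjusted p = 1.06e-05). None of these markers has a zero on this scale. The untreated livers also fell into pairs by their clock genes: Dbp stood at 8.14, 11.19, 7.59 and 11.39 on untreated replicates 1 to 4, against 8.36 to 9.39 on S534A LPS and 8.80 to 9.47 on WT LPS arrays. In whole tissue, fewer hepatocytes and less RNA per hepatocyte cannot be told apart, and the part of other cells and of the clock in the results was not tested beyond the values given.

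Srebf2 and the genes that handle its protein were taken first. Srebf2 stood at 9.64, 9.76, 9.85 and 9.83 on the S534A LPS arrays, at 9.70, 9.60, 9.61 and 9.57 on WT LPS and at 9.61, 9.45, 9.60 and 9.38 on WT untreated. The 2 WT groups overlapped, the difference of WT LPS against untreated being 0.11 ± 0.07 with a 95% interval from -0.04 to 0.26 (limma adjusted p = 0.276). All 4 S534A LPS arrays lay above all untreated ones, by 0.26 ± 0.07 or 1.2-fold (limma adjusted p = 0.0137). The lower untreated values were those of replicates 2 and 4, which had high Dbp. Without those 2 arrays the difference of S534A LPS against untreated was 0.17 (limma adjusted p = 0.156), and without the 3 arrays with pancreas transcripts it was 0.24 (limma adjusted p = 0.0635).

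The promoter of Srebf2 is shown because SREBP2 is known to act on its own gene. The promoters of Sc5d, the member with the smallest p among those with a window, and of Idi1 and Cyp51, the pair whose levels varied together most closely, were added after the values were seen. RefSeq windows of 300 bases on GRCm38.p6 (250 before the start of the gene and 50 after) were at hand for 5 of the 8 genes, Cyp51, Idi1, Lss, Sc5d and Srebf2, and the 250 bases before the start are printed 5′ to 3′ on the strand of the gene. Capitals mark CCAAT, the box bound by NF-Y, on either strand (ATTGG on the printed one), and TCACNCCA, a shortened form of an SREBP element.
Srebf2, chr15:82147019-82147268, plus strand: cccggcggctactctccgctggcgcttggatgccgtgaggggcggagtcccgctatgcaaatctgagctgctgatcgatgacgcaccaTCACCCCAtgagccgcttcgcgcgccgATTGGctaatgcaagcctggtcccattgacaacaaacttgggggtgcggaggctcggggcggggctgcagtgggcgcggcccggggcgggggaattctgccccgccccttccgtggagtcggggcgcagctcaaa
Sc5d, chr9:42264301-42264550, minus strand: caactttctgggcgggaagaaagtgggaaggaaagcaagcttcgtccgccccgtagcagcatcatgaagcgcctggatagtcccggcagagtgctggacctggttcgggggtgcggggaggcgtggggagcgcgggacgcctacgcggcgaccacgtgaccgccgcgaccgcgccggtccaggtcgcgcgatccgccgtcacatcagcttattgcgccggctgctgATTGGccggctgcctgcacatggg
Idi1, chr13:8885356-8885605, plus strand: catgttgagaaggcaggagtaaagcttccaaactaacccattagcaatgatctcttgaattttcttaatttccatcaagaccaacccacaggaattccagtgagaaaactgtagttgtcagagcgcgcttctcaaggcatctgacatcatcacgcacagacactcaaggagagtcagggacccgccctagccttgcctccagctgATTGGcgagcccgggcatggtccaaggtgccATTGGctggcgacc
Cyp51, chr5:4104698-4104947, minus strand: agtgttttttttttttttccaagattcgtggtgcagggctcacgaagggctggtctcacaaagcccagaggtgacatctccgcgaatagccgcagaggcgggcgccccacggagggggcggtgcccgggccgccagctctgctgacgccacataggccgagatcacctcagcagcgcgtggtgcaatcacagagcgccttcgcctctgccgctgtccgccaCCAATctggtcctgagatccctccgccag

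Matches were sought on both strands in the 300-base windows. The longer element TCACNCCAC was in 0 of the 5 windows and in 1.24% of all 32851 windows. The shortened form, chosen after the sequences were seen and contained in the longer one, was in 1 of the 5, that of Srebf2, where it begins 162 bases before the start, and in 4.36% of all windows. CCAAT was in 5 of the 5 windows and 37.4% of all, beginning 135 bases before the start in Srebf2, 24 in Sc5d, 45 and 14 in Idi1 and 29 in Cyp51. The GC box GGGCGG, a letter pattern bound by Sp1, was in 5 of the 5 and in 35.7% of all windows, and the E-box CACGTG was in 1 of the 5, that of Sc5d, and in 7.15% of all. Among 32 windows of 24 sterol pathway genes, these 5 included, TCACNCCAC was in 1, that of Hmgcs1, and CCAAT in 23. A match is a description of letters, and its absence says only that these letters are not in this window.

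Of the genes for the SREBP machinery other than Srebf2, Scap, Insig1 and Srebf1 fell in WT LPS against untreated. Scap, the escort protein, stood at 10.06 to 10.23 on S534A LPS and 9.87 to 10.06 on WT LPS arrays, against 10.39 to 10.60 on untreated ones. WT LPS was lower than untreated by 0.53 ± 0.07, to 69.4% (limma adjusted p = 8.32e-05). Insig1, the retention protein whose gene SREBPs induce, averaged 11.68 ± 0.24 in S534A LPS, 11.67 ± 0.05 in WT LPS and 12.55 ± 0.27 in WT untreated livers (SD, n = 4 each). In WT LPS it differed from untreated by -0.87 ± 0.13 (limma adjusted p = 0.000398), and each LPS array lay below each untreated one. Srebf1, which encodes the relative of SREBP2 that acts mainly on fatty acid synthesis, averaged 9.67 ± 0.39, 9.35 ± 0.11 and 10.47 ± 0.45 in the same order and in WT LPS differed from untreated by -1.11 ± 0.22 (limma adjusted p = 0.00202). Insig2, the second retention protein, differed by 0.11 ± 0.22 (limma adjusted p = 0.762), its untreated values spanning 1.30. Without untreated replicates 1 and 3 it was higher by 0.55 and passed (limma adjusted p = 0.0324). In all, 3 of the 6 machinery genes measured fell and 0 rose, while 15.6% of all genes fell and 9.34% rose.

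Idi1 encodes the isomerase that turns isopentenyl diphosphate into its reactive isomer. Its values were 10.69, 11.26, 11.39 and 10.78 in S534A LPS, 11.19, 10.96, 11.22 and 11.28 in WT LPS and 11.42, 11.29, 11.29 and 11.65 in WT untreated livers. The S534A LPS arrays were the most spread, over a range of 0.70, and overlapped both other groups. The WT LPS arrays all lay below the untreated ones, by a narrow margin, and the difference of -0.25 ± 0.15 did not pass (limma adjusted p = 0.252). A further probe set of Idi1 averaged 11.02 ± 0.36, 11.18 ± 0.11 and 11.40 ± 0.14 in the same order (SD, n = 4 each).

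Fdft1 encodes squalene synthase, which commits the pathway to sterols. It stood at 11.44, 11.94, 12.03 and 11.75 in S534A LPS, at 11.90, 11.66, 11.75 and 11.83 in WT LPS and at 12.40, 12.03, 12.26 and 12.23 in WT untreated livers. Every LPS array lay below the untreated ones, S534A LPS replicate 3 by less than the rounding. WT LPS fell relative to untreated by 0.45 ± 0.12, to 73.4% (limma adjusted p = 0.0143). The call was lost without the 3 arrays with pancreas transcripts (-0.37, limma adjusted p = 0.111). It was also lost without untreated replicates 1 and 3 (-0.35, limma adjusted p = 0.103).

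Sqle encodes squalene epoxidase, a rate-limiting enzyme of the sterol branch. Its values were 11.14, 11.53, 11.41 and 11.09 in S534A LPS, 11.26, 11.20, 11.18 and 11.27 in WT LPS and 11.14, 10.79, 10.89 and 10.93 in WT untreated livers. All 4 WT LPS arrays lay above all untreated ones, whereas S534A LPS overlapped the untreated group. The difference of WT LPS against untreated was 0.29 ± 0.10, 1.22-fold, with a limma adjusted p of 0.0531. It passed when untreated replicate 1, the highest untreated array, was left out (0.36, limma adjusted p = 0.0225) and also without S534A LPS replicate 2 or 4 (limma adjusted p = 0.0356 and 0.0441). S534A LPS was higher than untreated by 0.35 ± 0.10 (limma adjusted p = 0.0196), a call lost without untreated replicate 2 (limma adjusted p = 0.0606), S534A LPS replicate 2 (0.0637) or S534A LPS replicate 3 (0.0614). It was also lost without untreated replicates 2 and 4 (limma adjusted p = 0.152) and without the pancreas arrays (0.0839).

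Lss encodes lanosterol synthase, which closes the sterol rings. It stood at 9.16, 9.55, 9.69 and 9.28 in S534A LPS, at 9.58, 9.26, 9.44 and 9.53 in WT LPS and at 10.28, 9.96, 9.84 and 9.85 in WT untreated livers. Neither LPS group overlapped the untreated one. WT LPS fell relative to untreated by 0.53 ± 0.13, to 69.2% (limma adjusted p = 0.00824), and without the 3 arrays with pancreas transcripts the difference was -0.43 (limma adjusted p = 0.0702). Cyp51, which encodes the lanosterol demethylase, stood at 10.05, 10.54, 10.76 and 10.35 in S534A LPS, at 10.45, 10.30, 10.39 and 10.57 in WT LPS and at 10.78, 10.61, 10.57 and 10.98 in WT untreated livers. The 3 groups overlapped, and the difference of WT LPS against untreated was -0.31 ± 0.14 with an interval from -0.60 to -0.01 (limma adjusted p = 0.128).

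Sc5d encodes the sterol desaturase (lathosterol oxidase) that acts late in the pathway. It stood at 11.69, 11.87, 11.91 and 11.72 in S534A LPS, at 12.03, 11.67, 11.74 and 11.76 in WT LPS and at 12.57, 12.42, 12.42 and 12.46 in WT untreated livers. The untreated arrays were close together, and every LPS array lay clearly below them. WT LPS fell relative to untreated by 0.67 ± 0.08, to 62.9% (limma adjusted p = 7.17e-05). The difference stayed between -0.74 and -0.57 and past the threshold in all 24 alternative analyses, among them the one without the pancreas arrays (-0.57) and those without either pair of untreated arrays (-0.69 and -0.64).

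Stard4 encodes a protein that carries cholesterol between membranes and is a known SREBP2 target. Its values were 9.08, 9.26, 9.41 and 8.94 in S534A LPS, 9.09, 9.05, 9.55 and 9.47 in WT LPS and 10.12, 10.53, 10.08 and 10.76 in WT untreated livers. The lowest untreated array lay above the highest LPS array. WT LPS fell relative to untreated by 1.08 ± 0.17, or 2.12-fold (limma adjusted p = 0.000374), the largest difference among the 8 genes in this comparison. Within the untreated group, replicates 2 and 4, with high Dbp, were the higher ones. Without those 2 the difference was -0.81 and without replicates 1 and 3 it was -1.36, past the threshold in both analyses. Without the pancreas arrays it was -1.10.

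**Figure D2:**
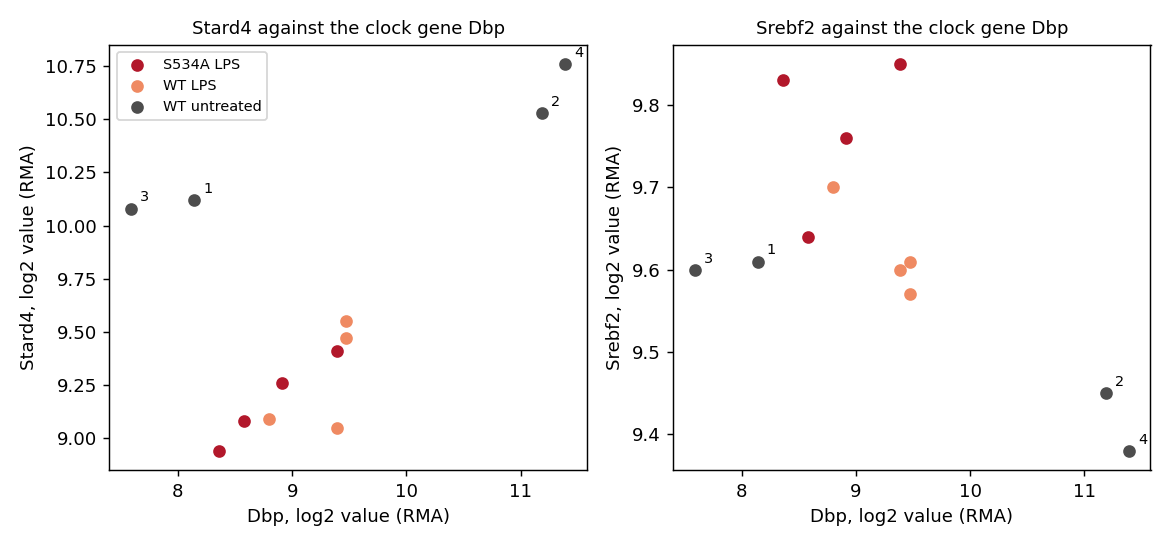
Log2 value of Stard4 (left) and Srebf2 (right) on the vertical axis against the log2 value of the clock gene Dbp on the horizontal axis, 1 point per array coloured by group, with untreated arrays numbered by replicate. Untreated replicates 2 and 4, with Dbp at 11.19 and 11.39, have the highest Stard4 and the lowest Srebf2 values, and untreated replicates 1 and 3 still have more Stard4 than the LPS arrays.

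The rest of the pathway was described with 3 lists covering sterol synthesis, the SREBP machinery and other SREBP2 targets, 34 genes in all, of which 28 were measured. Of the 28, 13 fell and 0 rose in WT LPS against untreated, 19 having an unadjusted p under 0.05, and the median difference was -0.28. Of the 20 other than the 8 genes above, 9 fell and 0 rose, 13 having an unadjusted p under 0.05, with a median of -0.25, against 15.6% of all genes falling. Of all 19938 genes, 7074 had an unadjusted p under 0.05 in this comparison. In sterol synthesis 8 of 18 fell. Msmo1, which encodes the sterol methyl oxidase that acts after Cyp51, averaged 11.49 ± 0.28 in S534A LPS, 11.59 ± 0.05 in WT LPS and 12.22 ± 0.10 in WT untreated livers (SD, n = 4 each), a difference of -0.64 ± 0.11 in WT LPS against untreated (limma adjusted p = 0.00117). Mvk, mevalonate kinase, fell to 66.2% (-0.60 ± 0.13, limma adjusted p = 0.00549). Pmvk, Mvd and Ebp, 3 more synthesis genes chosen after their values were seen so as to complete the count, differed by -0.53, -0.64 and -0.23. Without the pancreas arrays the calls of all 3 were lost (limma adjusted p = 0.0988 for Pmvk, 0.158 for Mvd and 0.0796 for Ebp). Without untreated replicates 1 and 3 those of Pmvk (0.0762) and Mvd (-0.29, 0.0592) were lost. That of Ebp was lost without untreated replicates 2 and 4 (0.068). Of the 3, Mvd was the least steady: without untreated replicate 1 its difference was -0.39, and its call was lost without untreated replicate 3 or any of the 4 WT LPS arrays (limma adjusted p between 0.05 and 0.0584). With only the 2 groups fitted the Mvd call was also lost (0.079). Hmgcs1, an early synthase of the pathway, differed by -0.31 ± 0.17 and did not pass (limma adjusted p = 0.202). Among other SREBP2 targets Tmem97, a sterol-regulated membrane protein, fell to 65.9% (-0.60 ± 0.09, limma adjusted p = 0.000219). Without the 3 arrays with pancreas transcripts, which leaves 2 WT LPS arrays, 8 of the 28 and 2 of the 8 genes fell, and 8.75% of all genes did.

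**Figure D3:**
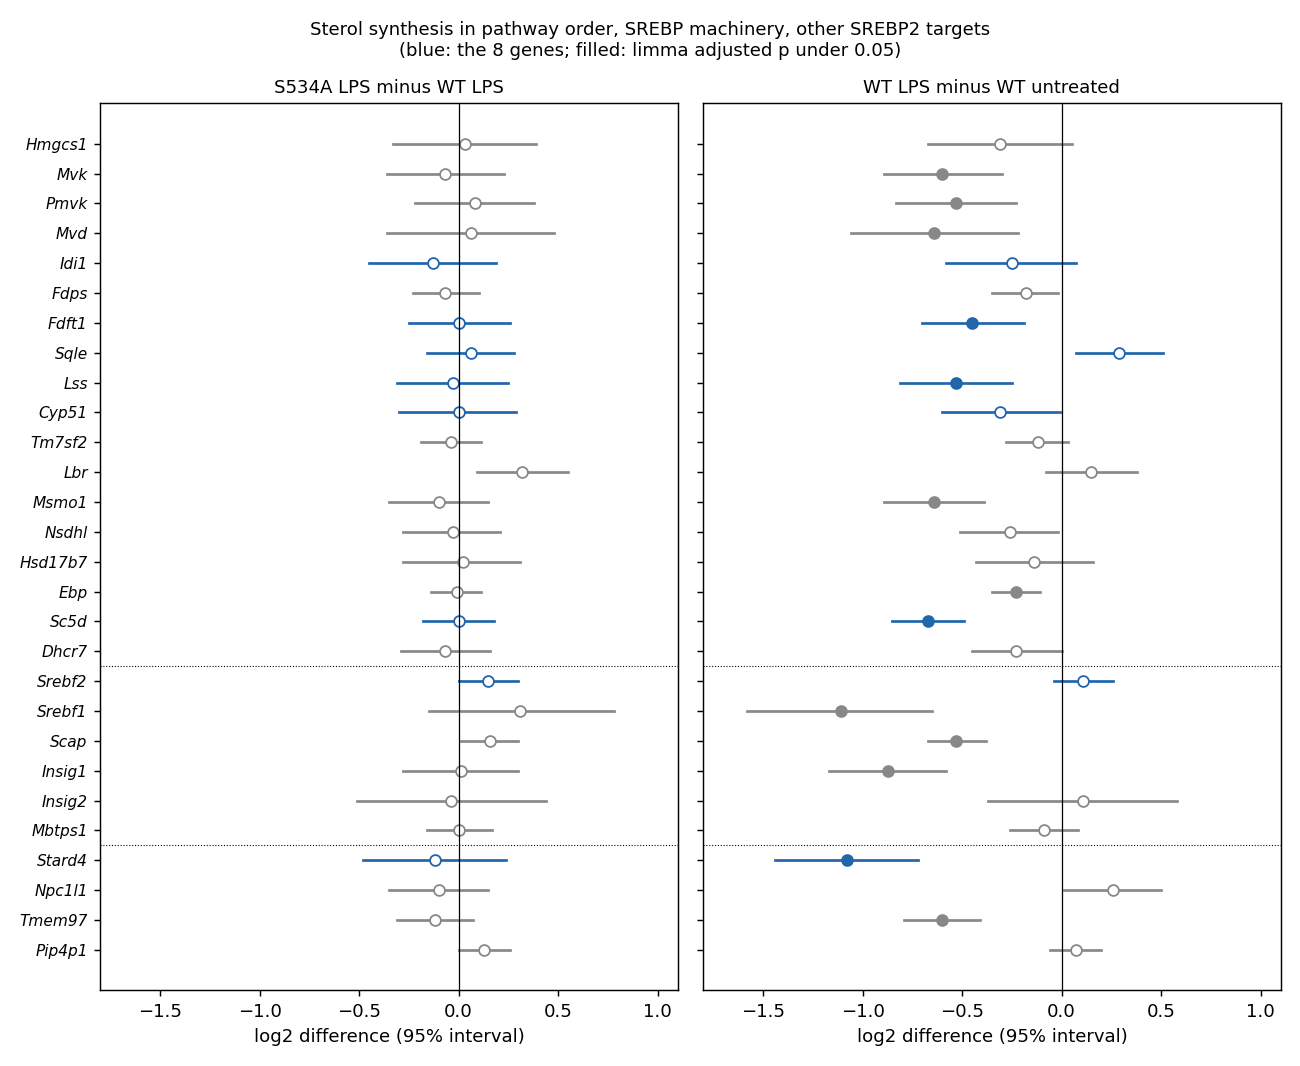
Log2 difference (horizontal axis) with its 95% interval for the 28 sterol pathway genes measured, in pathway order, for S534A LPS minus WT LPS on the left and WT LPS minus WT untreated on the right; blue marks the 8 genes and filled points passed at a limma adjusted p under 0.05. Filled points appear on the right panel alone, 13 of them and all below 0, while Sqle lies above 0 between Fdft1 and Lss.

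Neighbouring lists of sterol handling held genes that rose and genes that fell, and several of their counts lie near the shares over all genes, of which 15.6% fell and 9.34% rose. In WT LPS against untreated 7074 of all 19938 genes had an unadjusted p under 0.05. Of 6 genes of the machinery that degrades sterol pathway enzymes in the endoplasmic reticulum, 3 rose in WT LPS against untreated and 0 fell, 3 having an unadjusted p under 0.05. They were Syvn1, a ubiquitin ligase (0.92 ± 0.20, limma adjusted p = 0.00396), the conjugating enzyme gene Ube2g2 (0.48 ± 0.11, limma adjusted p = 0.00692) and Rnf139, a sterol-responsive ligase (0.35 ± 0.08, limma adjusted p = 0.00421). Without untreated replicates 2 and 4 Syvn1 (0.60, limma adjusted p = 0.0506) and Ube2g2 (0.37, 0.0736) no longer passed, nor did Rnf139 without untreated replicates 1 and 3 (0.24, 0.0513). Rnf145, of the same list, differed by -0.34 ± 0.20 (limma adjusted p = 0.261). Without untreated replicates 1 and 3 it fell past the threshold (-0.83, limma adjusted p = 2.18e-05). Among 7 genes of LXR and sterol efflux, 3 fell and 1 rose. The gene that rose, Abca1, the transporter that loads cholesterol onto apolipoprotein A-I, averaged 11.89 ± 0.07 in S534A LPS, 11.86 ± 0.02 in WT LPS and 10.87 ± 0.07 in WT untreated livers (SD, n = 4 each), a difference of 0.99 ± 0.06 in WT LPS against untreated (limma adjusted p = 4.42e-08). Lpcat3, a phospholipid-remodelling enzyme and LXR target, fell to 43.5% (-1.20 ± 0.11, limma adjusted p = 5.71e-06). Abcg8, a biliary sterol exporter, fell by 0.95 ± 0.26 (limma adjusted p = 0.0159), and its untreated values followed the Dbp pairs (9.72, 10.68, 9.85 and 11.16). Without untreated replicates 2 and 4 its difference was -0.38 (limma adjusted p = 0.0567), and without the pancreas arrays it was -0.97 (0.0996). Mylip, a ubiquitin ligase and LXR target, fell by 0.32 ± 0.09 (limma adjusted p = 0.0205), a call lost without untreated replicate 4 or WT LPS replicate 2 or 4 (limma adjusted p between 0.0507 and 0.0631) as well as without the pancreas arrays (0.0908) or untreated replicates 2 and 4 (0.136). Nr1h3, which encodes LXR alpha, differed by -0.13 ± 0.06 (limma adjusted p = 0.165).

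In the list of storage and transport, 3 of 10 genes fell and 1 rose in WT LPS against untreated. Among all genes 15.6% fell and 9.34% rose there, which are also the shares for the 2 lists that follow. Npc1, which exports cholesterol from lysosomes, averaged 10.60 ± 0.23 in S534A LPS, 10.72 ± 0.17 in WT LPS and 11.73 ± 0.37 in WT untreated livers (SD, n = 4 each), and in WT LPS fell by 1.02 ± 0.17 (limma adjusted p = 0.000652). Like Stard4, it was higher in untreated replicates 2 and 4 (11.93 and 12.13) than in 1 and 3 (11.34 and 11.53), and its difference without replicates 2 and 4 was -0.71. Lipa, the lysosomal lipase, fell by 0.62 ± 0.09 (limma adjusted p = 0.000191), Stard5, a relative of Stard4, fell by 0.35 ± 0.09 (limma adjusted p = 0.0123), and Scarb1, the HDL receptor, rose by 0.35 ± 0.09 (limma adjusted p = 0.0091). Without the pancreas arrays Stard5 (limma adjusted p = 0.146) and Scarb1 (0.076) no longer passed, and neither did Stard5 without untreated replicates 2 and 4 (0.11) or Scarb1 without untreated replicates 1 and 3 (0.086). Of 8 genes of the non-sterol isoprenoid branch 1 fell, Rabggta, a subunit of the enzyme that prenylates Rab proteins (-0.57 ± 0.05, limma adjusted p = 5.12e-06). Of 7 genes of oxysterol and bile acid synthesis 2 fell and 1 rose. Cyp8b1, which shapes the bile acid pool, fell by 0.97 ± 0.20 (limma adjusted p = 0.00283), and Cyp39a1, an oxysterol hydroxylase, fell by 0.70 ± 0.20 (limma adjusted p = 0.0196), a call lost without WT LPS replicate 2 (limma adjusted p = 0.0548). Both calls were lost without the pancreas arrays (limma adjusted p = 0.0518 for Cyp8b1 and 0.165 for Cyp39a1). Cyp7a1, the rate-limiting enzyme of bile acid synthesis, differed by -0.48 ± 0.54 (limma adjusted p = 0.556).

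Of 13 clock genes 2 fell and 1 rose in WT LPS against untreated, close to the shares of all genes (15.6% and 9.34%). Cry1 and Cry2, both repressors of the clock, fell by 0.62 ± 0.11 (limma adjusted p = 0.000912) and by 0.81 ± 0.22 (limma adjusted p = 0.0161), Cry2 with a difference of -0.36 without untreated replicates 2 and 4 (limma adjusted p = 0.157). Nr1d1, another repressor, rose by 0.67 ± 0.20 (limma adjusted p = 0.0301), a call lost without untreated replicate 2 or 3 or WT LPS replicate 1, 2 or 3 (limma adjusted p between 0.0535 and 0.0885). Without the pancreas arrays the calls of Cry2 (limma adjusted p = 0.0706) and Nr1d1 (0.161) were lost. They were also lost with only the 2 groups fitted (0.0513 and 0.0827), and that of Cry2 with array weights (-0.42, 0.109). Dbp, Arntl and Per2, which split the untreated livers, differed by -0.29 ± 0.72, 0.14 ± 0.64 and -0.81 ± 0.36, none past the threshold.

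The comparison of S534A LPS with WT LPS asks what the substitution in p65 changed in livers given LPS. None of the 8 genes passed, 0 of them having an unadjusted p under 0.05 in limma's fit, and 0.171% of all genes passed. The differences were 0.15 ± 0.07 for Srebf2 (95% interval 0.00 to 0.30), -0.13 ± 0.15 for Idi1 (-0.45 to 0.19), 0.00 ± 0.12 for Fdft1 (-0.25 to 0.26) and 0.06 ± 0.10 for Sqle (-0.16 to 0.28). For Lss the difference was -0.03 ± 0.13 (-0.31 to 0.25), for Cyp51 0.00 ± 0.14 (-0.30 to 0.29), for Sc5d 0.00 ± 0.08 (-0.18 to 0.18) and for Stard4 -0.12 ± 0.17 (-0.48 to 0.24). The intervals of Stard4 and Idi1 were the widest of the 8, and missing the threshold does not show that levels were equal. Of all 19938 genes, 1148 had an unadjusted p under 0.05 in limma's fit. Over the 28 pathway genes 0 passed and 2 had such an unadjusted p, near the share over all genes. These were Scap (0.16 ± 0.07, limma adjusted p = 0.801) and Lbr, a sterol reductase named after its value was seen (0.32 ± 0.11, limma adjusted p = 0.484). The median difference was 0.00 over the 8 genes and 0.01 over all genes.

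One gene of the neighbouring lists differed between the genotypes. Ch25h, which encodes the hydroxylase that makes an oxysterol known to hold back SREBP processing, stood at 8.19, 8.26, 7.86 and 8.71 in S534A LPS, at 7.25, 6.87, 7.05 and 7.38 in WT LPS and at 6.05, 5.90, 6.05 and 5.90 in WT untreated livers. The 3 groups did not overlap. S534A LPS was higher than WT LPS by 1.12 ± 0.15, 2.17-fold (limma adjusted p = 0.0136), and WT LPS was higher than untreated by 1.16 ± 0.15 (limma adjusted p = 0.000109). The genotype call was lost without S534A LPS replicate 2 (1.12, limma adjusted p = 0.0572) and without WT LPS replicate 3 (1.09, 0.0746). It was also lost without the 3 arrays with pancreas transcripts (1.07, limma adjusted p = 0.14), where 1 of all genes was higher past the threshold and 0 lower. Over the 24 alternatives the difference ran from 0.97 to 1.25. Of the 12 neutrophil markers 2 passed in this comparison and 10 did not, and 0.171% of all genes passed. The 2 were S100a9, higher in S534A LPS than in WT LPS by 0.52 ± 0.09 (limma adjusted p = 0.0385), and Retnlg (0.68 ± 0.10, 0.0158). The median difference of the 12 was 0.46, while Lcn2 differed by -0.05, Ltf by 0.03 and Camp by 0.04. Lcn2 had the highest means of the 12, 13.42 in S534A LPS and 13.48 in WT LPS livers, and its cell source was not tested. The part of neutrophils in the Ch25h difference was not tested.

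Set against WT untreated, the S534A LPS group gave values that share the untreated arrays with the comparison above. Of the 8 genes 4 fell, Sc5d, Stard4, Lss and Fdft1, and 2 rose, Srebf2 and Sqle, while 16.0% of all genes fell and 11.0% rose. Stard4 differed by -1.20 ± 0.17, to 43.4% (limma adjusted p = 0.000129), Sc5d by -0.67 ± 0.08 (limma adjusted p = 5.42e-05), Lss by -0.56 ± 0.13 (limma adjusted p = 0.00513) and Fdft1 by -0.44 ± 0.12 (limma adjusted p = 0.0138). Idi1 differed by -0.38 ± 0.15 (limma adjusted p = 0.0796) and Cyp51 by -0.31 ± 0.14 (limma adjusted p = 0.118). Both passed without S534A LPS replicate 3, the highest array of its group for these 2 genes, Idi1 at -0.50 (limma adjusted p = 0.0227) and Cyp51 at -0.42 (limma adjusted p = 0.0324). Of the 28 pathway genes 14 fell and 4 rose. Cyp7a1 was at 8.11, 10.62, 10.88 and 10.03 in S534A LPS livers, its first replicate far below the rest, and its difference from untreated was -1.57 ± 0.54 (limma adjusted p = 0.0471). Without that replicate it was -0.97 (limma adjusted p = 0.101), and leaving out untreated replicate 2, 3 or 4, S534A LPS replicate 4, or WT LPS replicate 3 or 4 also ended the call (limma adjusted p between 0.0602 and 0.124).

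Within groups, the enzyme genes tended to be high or low on the same arrays. After each gene was centred on its group means, the mean deviation of the 8 genes was -0.23, 0.13, 0.22 and -0.12 on S534A LPS replicates 1 to 4, the widest spread of the 3 groups. It was 0.05, -0.13, 0.01 and 0.06 on WT LPS and 0.08, -0.07, -0.09 and 0.08 on WT untreated arrays. Among the 6 enzyme genes the 15 pairwise correlations of these deviations ran from 0.56 to 0.94 with a median of 0.75 (Pearson r over the 12 arrays), the closest pair being Idi1 and Cyp51. Each enzyme gene correlated with the mean of the other 7 genes at 0.68 for Sc5d to 0.93 for Idi1, whereas Stard4 and Srebf2 did so at 0.29 and 0.24 and correlated with each other at -0.54. Both followed some enzyme genes more closely than others: Stard4 correlated with Idi1 at 0.66 and Cyp51 at 0.57 but with the other enzyme genes at 0.01 to 0.15, and Srebf2 with Fdft1 at 0.67, Lss at 0.56 and Sc5d at 0.52 but with Sqle at 0.35, Cyp51 at 0.18 and Idi1 at 0.10. S534A LPS replicate 1, the lowest array of its group for the enzyme genes Idi1, Fdft1, Lss, Cyp51 and Sc5d, was also that of the low Cyp7a1 value. The pancreas markers were highest on S534A LPS replicate 3, which had the highest mean deviation, and next on WT LPS replicate 2, which had the lowest of its group. These correlations share arrays and their normalisation and are given as a description.

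**Figure D4:**
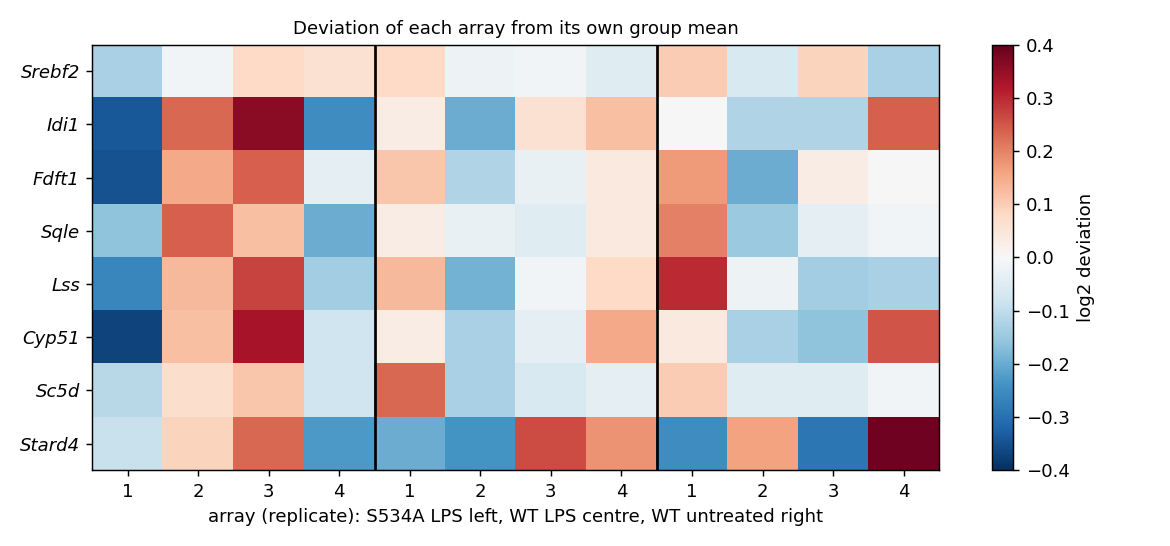
Deviation of each array's log2 value from its own group mean (colour scale, log2) for the 8 genes in rows and the 12 arrays in columns, S534A LPS left, WT LPS centre and WT untreated right, replicates numbered 1 to 4. The enzyme genes are low together on S534A LPS replicate 1 (mean deviation -0.23 over the 8 genes) and high together on replicate 3 (0.22).

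There were 9159 genes with a mean log2 value of at least 7, the 8 included. Among the others, those whose deviations were most like the mean of the 8 were Hsd17b7 (r = 0.95), Bmp2 and Vps28 (both 0.94), and Emc4 and Gimap4 (both 0.91), over the 12 arrays. Hsd17b7, which encodes an enzyme of the sterol pathway itself, averaged 10.76 ± 0.35 in S534A LPS, 10.74 ± 0.10 in WT LPS and 10.88 ± 0.09 in WT untreated livers (SD, n = 4 each), and its difference in WT LPS against untreated was -0.14 ± 0.14 (limma adjusted p = 0.51).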

How the data were processed

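RNA from 12 livers was hybridised to Affymetrix GeneChip arrays. The log2 values deposited were made by the authors with RMA (background correction, quantile normalisation and summary per probe set), per the submitters' processing notes; the sources used here do not give its version. They were used without further normalisation. Of 35556 probe sets 21789 carry 1 gene symbol, 1621 several and 12146 none in the platform annotation, and 21698 of the former matched the GRCm38.p6 gene table by Entrez identifier. For 999 genes with more than 1 probe set the one with the highest mean was used, leaving 19938 genes. Array medians ran from 6.15 to 6.32 and replicates correlated at 0.983 to 0.996. Groups were taken from the sample labels, and replicates were numbered in the order of the labels.

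All 12 arrays entered 1 two-sided limma fit (version 3.58.1, R 4.3.3, lmFit with eBayes), whose degrees of freedom were 9 residual and 3.54 prior, with Benjamini-Hochberg adjustment over all genes. The fit was tested on simulated data. The members and gene lists were chosen with earlier results of these data known. Named genes were the 8 members, a fixed set of regulators and clock genes, up to 4 called genes per list with the smallest p, the 5 genes most like the members, and abundant cell type markers. Where no label says that replicates are separate litters or cages, p-values measure only the spread between these samples, and 4 arrays per group limit the precision. Same-numbered replicates did not vary together (correlations from -0.268 to 0.215), so no block was used. Promoter windows are from RefSeq on GRCm38.p6. Alternatives left out each array in turn and changed the filter, the threshold, the scaling and the fit. After the data were seen, 2 alternatives leaving out pairs of untreated arrays were added. Listed genes that had no 1-symbol probe set were not analysed here.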

Additional observations from a re-analysis of the deposited data

Results flagged for a closer look

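Ch25h differed between the genotypes after LPS by 1.12 on the log2 scale (S534A LPS minus WT LPS, limma adjusted p = 0.0136), with all 4 S534A LPS livers above all 4 WT LPS livers. It was the 1 gene of the sterol lists past the threshold in this comparison. Rnf139 was also higher on all 4 S534A LPS arrays, by 0.23 (limma adjusted p = 0.48), and passed with array weights (0.26, limma adjusted p = 0.0316). Cry2, of the clock list, was lower on all 4 S534A LPS arrays than on the WT LPS ones (-0.73, limma adjusted p = 0.37). It passed with array weights (-0.89, limma adjusted p = 0.0102) and without untreated replicates 2 and 4 (-0.73, 0.0476). The Ch25h call was lost without S534A LPS replicate 2 (1.12, limma adjusted p = 0.0572) or WT LPS replicate 3 (1.09, 0.0746), and without the pancreas arrays (1.07, 0.14). Whether the difference was there before LPS was not tested, since untreated S534A livers were not analysed here. Among 51 groups of 4 values, for the 17 genes examined for a lone outlying array, no array stood apart by Dixon's criterion at the 95% level.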

How the results depend on the processing

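Sc5d and Stard4 stayed past the threshold and in the same direction in all 24 alternatives, against untreated, in both LPS groups. With each of the 12 arrays left out in turn, the number of the 8 genes that fell in WT LPS against untreated stayed at 4 and the number that rose ran from 0 to 1, while in S534A LPS against untreated 4 to 6 fell and 1 to 2 rose. Over the 28 pathway genes the same ranges were 12 to 13 and 0 to 1 for WT LPS, and 11 to 17 and 2 to 4 for S534A LPS. Without the 3 arrays with pancreas transcripts, in WT LPS against untreated 2 of the 8 genes and 8 of the 28 fell, and 8.75% of all genes did. In S534A LPS against untreated 6 of the 8 and 16 of the 28 fell there, Idi1 and Cyp51 newly among them, and 14.6% of all genes did. In the same comparison 0 of the 8 and 1 of the 28 rose, and 10.5% of all genes did. Of the 8 genes 1, Sqle, rose in WT LPS against untreated with only the 2 groups fitted, with genes at a mean of 6 or more, with trend and robust settings, with quantile normalisation repeated and at an adjusted p under 0.10, as did 1 of the 28 under each of these and with array weights. Without untreated replicates 1 and 3, 1 of the 8 and 2 of the 28 rose in WT LPS, and 10.1% of all genes did. Without untreated replicates 2 and 4, in S534A LPS against untreated 0 of the 8 and 1 of the 28 rose, and 9.80% of all genes did. At an adjusted p under 0.01, 0 of the 8 rose, 9 of the 28 fell and 1 rose in that comparison. Shares of all genes are not given here for either changed threshold. Nor are they given for fits without single arrays, with only the 2 groups, the filter, trend and robust settings, repeated quantile normalisation or array weights. Small differences between the genotypes that did not pass crossed 0 in some alternatives, such as Sqle (from -0.02 to 0.13) and Lss (from -0.22 to 0.06). Without untreated replicates 2 and 4, clock genes turned: Arntl to -1.27 and Dbp to 1.42 in WT LPS, and Dbp to 0.95 in S534A LPS, both against untreated. These leave-out fits drop the arrays that carried the opposite clock values. The cause of the other changes was not tested. Between the genotypes 0 of the 8 and 0 of the 28 passed in every alternative. With the replicate number as a block, which the data do not bear out as a pairing, the calls over all genes were 17 higher and 0 lower between the genotypes, against 33 and 1 without it, and 0 of the 8 genes passed there. In WT LPS against untreated the block gave 4 lower and 0 higher among the 8 genes, and 2845 lower and 1641 higher among all genes.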
